A study of Mus musculus with 6 samples.

Results

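The 10 genes described here carry peptides from inside the cell to its surface. They are *H2-K1*, *H2-D1*, *B2m*, *Tap1*, *Tap2*, *Tapbp*, *Nlrc5*, *Psmb8* and *Psmb9* of the class I pathway, and *Cd74* of the class II pathway. They were taken by symbol from a list that sets no threshold on a measured value but was chosen with earlier results of these data known. All 10 were among the 22310 genes of the deposited table. RNA was sequenced from cells of primary mammary tumors of MMTV-PyMT mice, in which the mouse mammary tumor virus promoter drives the polyoma middle T antigen in mammary epithelium. The study's methods give the FVB/N strain, and the labels give the genotype as WT, the cell line as MMTV-PyMT, the tissue as mammary and no age. By the methods, tumors were taken from adult mice. Tumor cells were kept for a day in culture medium with serum, insulin and epidermal growth factor, depleted of Ter119, CD31 and CD45 positive cells, and sorted. The comparison asks how metastasis-initiating cells (MICs, Lin-CD24+CD90+) differ in expression from the other tumor cells (non-MICs, Lin-CD24+CD90-). There were 3 libraries of each population, numbered 1 to 3 in both, and the labels name no drug or gene perturbation. Libraries with 1 number are called a pair below. The sources used here do not say which mice or tumors a number stands for, so a p-value measures only the spread between these libraries.

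Between 31467281 and 51759769 reads were recovered per library from the scaled counts, which had been brought to the same total in all 6. Both libraries of pair 3 were the deepest, at 51759769 for MICs and 49904738 for non-MICs, against at most 33126717 in the others. Where reads are given below, those of pair 3 are therefore high beside the other pairs for the same scaled count. *Thy1*, which encodes the CD90 of the gate, had 1399, 271 and 1117 reads for MICs 1 to 3 against 16, 20 and 18 for non-MICs, which matches the labels. *Cd24a*, the other gate gene, had scaled counts of 11309, 19406 and 17276 for MICs against 14009, 14883 and 18754 for non-MICs. *Epcam*, an epithelial marker, was abundant in all 6 libraries, at 9712 to 23771. Departures from the group means went together within each pair over the whole table, so the genes are described by pair as well as by population.

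Nucleated cells cut cytosolic proteins in the proteasome, and inflammatory signals such as interferon gamma replace its catalytic subunits with the inducible *Psmb8*, *Psmb9* and *Psmb10* (the immunoproteasome). The transporter made of *Tap1* and *Tap2* moves the peptides into the endoplasmic reticulum, where tapasin (*Tapbp*) holds empty class I molecules at the transporter. A class I molecule is a heavy chain, here *H2-K1* or *H2-D1*, bound to beta-2 microglobulin (*B2m*), and CD8+ T cells read the peptide it shows. *Nlrc5* is a transcriptional coactivator of these genes. *Cd74*, the invariant chain, serves class II molecules instead, which are mainly found on professional antigen-presenting cells, and it is also a surface receptor for the cytokine MIF.

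The promoters of 4 members are shown because the paragraphs below turn on genes that share a promoter design, or a promoter, and yet differ between libraries. RefSeq starts were available for 7 of the 10 members. *H2-K1* had 2 listed promoter windows, of which the first was used, and its positions depend on that choice. Each sequence is the 250 bases upstream of the RefSeq start on GRCm38.p6, read 5′ to 3′ on the gene's own strand. *H2-K1* lies on the minus strand at chr17:34000348-34000597, and *H2-D1* on the plus strand at chr17:35262844-35263093. *B2m* lies on the plus strand at chr2:122147437-122147686, and *Tap1* on the plus strand at chr17:34187306-34187555. Capitals mark matches to GGGATTCCC (the NF-kB site of the class I enhancer), GAAANNGAA and GAANNGAAA (interferon regulatory factor elements, which may overlap), TGACGC (an X2 box core) and CCAAT (a Y box core), searched on both strands.
H2-K1: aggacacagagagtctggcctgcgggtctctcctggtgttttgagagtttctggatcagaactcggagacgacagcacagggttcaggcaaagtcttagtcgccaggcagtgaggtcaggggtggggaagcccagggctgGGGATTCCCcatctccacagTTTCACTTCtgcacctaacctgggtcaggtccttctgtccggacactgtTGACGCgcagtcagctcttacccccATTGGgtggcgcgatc
H2-D1: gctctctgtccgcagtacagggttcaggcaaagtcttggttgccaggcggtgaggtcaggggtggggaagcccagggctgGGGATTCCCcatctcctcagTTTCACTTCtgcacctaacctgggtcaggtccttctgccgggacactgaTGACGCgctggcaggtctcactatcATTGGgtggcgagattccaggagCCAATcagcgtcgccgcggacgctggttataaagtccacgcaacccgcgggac
B2m: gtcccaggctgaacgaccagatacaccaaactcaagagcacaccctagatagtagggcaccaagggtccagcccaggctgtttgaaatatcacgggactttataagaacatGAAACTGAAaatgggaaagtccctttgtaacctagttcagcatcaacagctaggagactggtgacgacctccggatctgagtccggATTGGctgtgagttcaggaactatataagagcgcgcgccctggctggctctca
Tap1: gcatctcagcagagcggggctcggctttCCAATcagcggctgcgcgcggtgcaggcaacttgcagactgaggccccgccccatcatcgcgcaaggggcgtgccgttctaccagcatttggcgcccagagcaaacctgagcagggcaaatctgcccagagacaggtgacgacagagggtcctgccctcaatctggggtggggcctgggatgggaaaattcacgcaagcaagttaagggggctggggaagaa

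The heavy chain promoters held the same 4 motifs in the same order, and *H2-D1* a further CCAAT at -53. The *H2-K1* window ends before the position that matches this CCAAT, so whether *H2-K1* has it too was not searched. The NF-kB site lay at -110 from the start of *H2-K1* and at -170 from that of *H2-D1*, and from there 97 of 110 bases (88.2%) were identical. It was found in 84 of 27025 RefSeq promoter windows of this length (0.311%), GAANNGAAA in 6.34%, TGACGC in 6.14%, and the much commoner CCAAT in 34.5%. *B2m* held the other interferon element, GAAANNGAA, found in 7.16% of windows, at -139, and had no exact match to GGGATTCCC. Variants of the listed letters were not searched, so a missing match does not show that a site is absent. *Tap1* held only a CCAAT among these letters. Its start lies 226 bases from that of *Psmb9*, which is read in the opposite direction, so that the 2 windows share 225 bases. A match to these letters is a description of the C57BL/6 reference sequence, not of that of FVB/N mice, and shows no binding.

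Per kilobase of exon, the class I complex itself came first. *B2m* had a mean scaled count of 15771 per kb over the 6 libraries, *H2-D1* 6865, *H2-K1* 4964 and *Tapbp* 1590. The genes that cut and move peptides were lower, with *Psmb8* at 265, *Tap2* at 188, *Tap1* at 125 and *Psmb9* at 33.5 per kb. *Nlrc5* was at 32.1 and *Cd74* at 9.37 per kb. From *B2m* down to *Psmb8* each neighbour in this order was the higher of its pair in 6 of 6 libraries, as were *Tap1* over *Psmb9* and *Nlrc5* over *Cd74*. *Psmb8* over *Tap2*, *Tap2* over *Tap1* and *Psmb9* over *Nlrc5* held in only 4 of 6 libraries, so those neighbours did not differ beyond their spread. The length used is that of all annotated exons of a gene together, 860 bases for *B2m*, 3381 for *Psmb8* and 3660 for *Psmb9*. It can exceed the length of the RNA that is made, and the order depends on it.

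**Figure D1:**
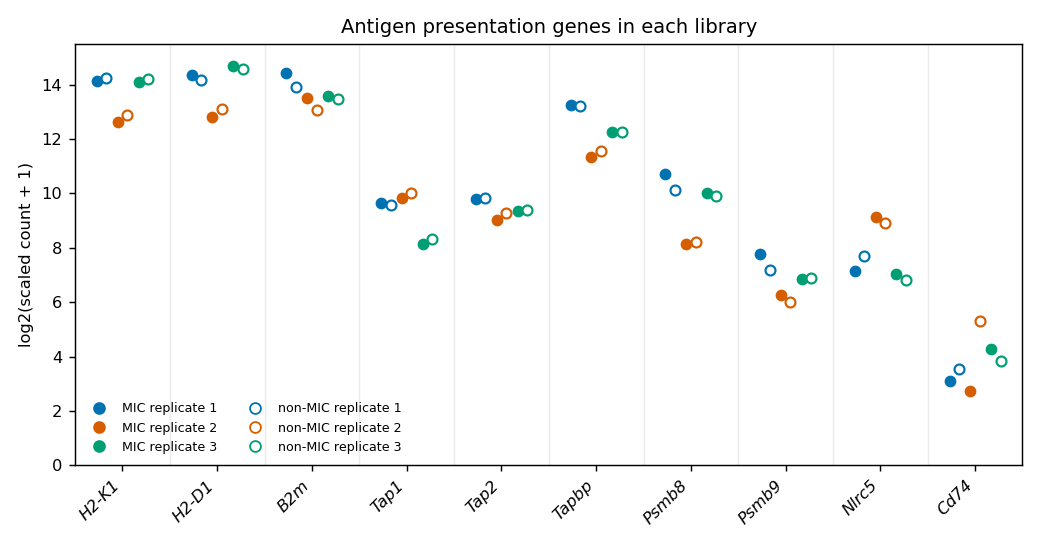
Log2(scaled count + 1) of the 10 genes in each library, with filled points for MICs, open points for non-MICs and a color for each replicate number. For the class I genes, MIC and non-MIC points of 1 color mostly lie closer together than the colors do, as for *Psmb8*, whose pair 2 values of 284 and 294 lie below the 1118 and 1699 of pair 1.

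The class I heavy chains did not separate the populations. *H2-K1* (chr17:33996017-34000347) had scaled counts of 18239, 6319 and 17401 for MICs 1 to 3 against 19266, 7530 and 18753 for non-MICs 1 to 3. *H2-D1* (chr17:35262730-35267499) had 21076, 7232 and 26336 for MICs against 18414, 8748 and 24415 for non-MICs. Both library 2s were the lowest for both genes, by a wide margin, and the populations overlapped. The MIC minus non-MIC difference was -0.15 for *H2-K1* on the log2(scaled count + 1) scale (SE 0.51, 95% interval -1.34 to 1.05, n = 3 libraries each, limma adjusted p = 1.00), with -0.08, -0.25 and -0.11 in pairs 1 to 3. It was 0.01 for *H2-D1* (SE 0.55, 95% interval -1.28 to 1.30), with 0.19, -0.27 and 0.11 in the pairs. In bulk RNA, fewer cells with a transcript and less of it per cell cannot be told apart.

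*B2m* (chr2:122147686-122153083), the light chain common to all class I molecules, was the one member with a higher value in MICs in all 3 pairs. It had 22011, 11628 and 12212 for MICs against 15576, 8676 and 11273 for non-MICs. The excess in MICs was 0.50, 0.42 and 0.12 in pairs 1 to 3, but the populations overlapped, since non-MIC 1 lay above MICs 2 and 3. The mean difference was 0.35 (SE 0.32, 95% interval -0.41 to 1.10), which did not pass the test. In the blocked limma fit, where the replicate number is a term, the interval was narrower, at -0.03 to 0.73, and still held 0 (limma adjusted p = 0.472, edgeR adjusted p = 0.568).

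The transporter subunits and tapasin also overlapped between MICs and non-MICs. *Tap1* (chr17:34187553-34197225) had 798, 918 and 285 for MICs against 766, 1039 and 316 for non-MICs, so that its lowest libraries were both those of pair 3. *Tap2* (chr17:34203527-34216321), its partner, was steadier, at 881, 522 and 657 for MICs against 918, 617 and 678 for non-MICs. *Tapbp* (chr17:33915899-33929292) had 9719, 2577 and 4877 for MICs against 9478, 3015 and 4947 for non-MICs. Pair 2 was the lowest for *Tap2* and *Tapbp*, and the low pair 3 values of *Tap1* were not shared by *Tap2*. The MIC minus non-MIC differences were -0.09 for *Tap1* (SE 0.58), -0.12 for *Tap2* (SE 0.29) and -0.07 for *Tapbp* (SE 0.56). *Tap2* was lower in MICs in all 3 pairs, by -0.06, -0.24 and -0.05, and its interval of -0.79 to 0.56 was the narrowest among the 10 genes.

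The immunoproteasome subunits varied between libraries of the same population far more than between populations. *Psmb8* (chr17:34197721-34201454), the inducible chymotrypsin-like subunit, had 1699, 284 and 1031 for MICs against 1118, 294 and 960 for non-MICs. *Psmb9* (chr17:34181987-34187764), which takes the place of the caspase-like subunit, had 220, 76.7 and 114 for MICs against 145, 63.4 and 116 for non-MICs. Both were highest in pair 1 and lowest in pair 2, in both populations. In pair 1 each was 0.60 higher in the MIC library, but the differences were -0.05 and 0.10 for *Psmb8* and 0.27 and -0.03 for *Psmb9* in pairs 2 and 3. The mean differences of 0.22 (SE 0.74) and 0.28 (SE 0.54) lay within the spread of the libraries.

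Each inducible subunit replaces a constitutive one, so their ratio within a library does not depend on how the libraries were scaled. These are ratios of scaled counts, not per kb, and only their change between libraries is read. *Psmb8* over *Psmb5* was 0.619, 0.120 and 1.51 for MICs 1 to 3 against 0.618, 0.140 and 1.38 for non-MICs 1 to 3. The ratio was nearly the same in MICs and non-MICs of a pair, while the highest library was 12.5 times the lowest. *Psmb5* itself had 2746, 2356 and 685 for MICs against 1808, 2102.5 and 696 for non-MICs. It was lowest in pair 3 and differed between replicate numbers (limma adjusted p = 7.5e-05). The high ratio of pair 3 thus came with low *Psmb5*, since *Psmb8* was lower in pair 3 than in pair 1. *Psmb9* over *Psmb6* was 0.0245, 0.00862 and 0.0185 for MICs against 0.0225, 0.0107 and 0.0170 for non-MICs, a span of 2.84-fold, again lowest in pair 2. The MIC minus non-MIC log2 difference was -0.03 for the first ratio and -0.02 for the second (exact two-sided permutation test, p = 1.0 for each and the same after adjustment over the 2, smallest p possible 0.1). *Psmb10* over *Psmb7*, which was not tested, was 0.157, 0.0596 and 0.0549 for MICs against 0.138, 0.0715 and 0.0589 for non-MICs. Of the 75-base windows of the *Psmb5* transcripts, 36.8% also occur in other genes, mostly in *Gm3375*, so the level of *Psmb5* is uncertain.

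**Figure D2:**
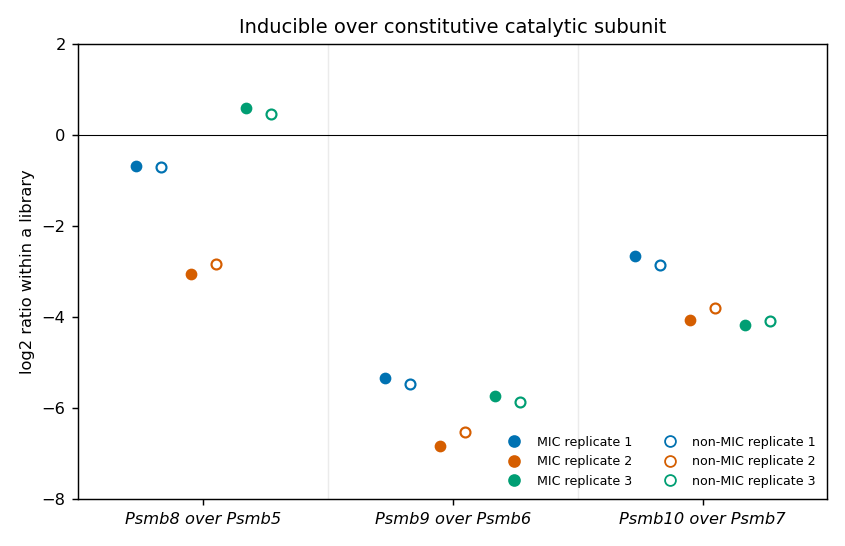
Log2 ratio of the scaled count of each inducible catalytic subunit to that of the constitutive subunit it replaces, per library, with filled points for MICs, open points for non-MICs and a color for each replicate number. *Psmb8* over *Psmb5* runs from 0.120 in MIC 2 to 1.51 in MIC 3, with MIC and non-MIC points of 1 color side by side.

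*Nlrc5* (chr8:94434356-94527272) had another order of pairs than most of the genes it is known to activate. It had 142, 564 and 129 for MICs against 206, 483 and 112 for non-MICs. Pair 2, where both heavy chains, *B2m*, *Tapbp* and both immunoproteasome subunits were lowest, held the highest *Nlrc5* in each population. The MIC minus non-MIC difference was -0.04 (SE 0.72, 95% interval -1.72 to 1.65), with -0.53, 0.22 and 0.20 in the pairs.

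*Cd74* (chr18:60803848-60812652) was close to the limit of counting. It had 7, 5 and 27 reads for MICs against 10, 37 and 19 for non-MICs. Non-MIC 2 was the highest and MIC 2 the lowest, and the mean difference of -0.87 (SE 0.77, 95% interval -2.66 to 0.91) came mostly from that pair, at -2.61, against -0.44 and 0.43 in pairs 1 and 3. Without pair 2, in the blocked fit, it was -0.01. Of 14 listed class II pathway genes 11 were in the table, and the chains that *Cd74* serves were as sparse. *H2-Aa*, the alpha chain of the I-A molecule, had 2, 0 and 0 reads for MICs against 1, 21 and 2 for non-MICs, so its highest library was also non-MIC 2. *H2-Ab1*, the beta chain, had 18, 73 and 48 for MICs against 1, 59 and 38 for non-MICs, and was higher in MICs in all 3 pairs without passing the test (mean difference 1.32, SE 1.27, limma adjusted p = 1.00, 0.425 with the block). *Ciita*, the master coactivator of class II genes, stayed between 3 and 10 reads. *Lgmn* and *Ctsl*, lysosomal proteases that act on the invariant chain, were expressed at 1115 to 1954 and 18448 to 39583, with differences of 0.23 and 0.15 that did not pass.

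Markers of cells that the depletion should have removed were measured beside these low values. Of 25 immune cell markers 18 were in the table, and their summed scaled count was 447 to 2757 in MICs and 350 to 1603 in non-MICs, highest in pair 2 of each population. *Lyz2*, the most abundant of them, had 29, 1470 and 210 reads for MICs against 44, 789 and 195 for non-MICs. *Ptprc*, which encodes the CD45 used for depletion, had 0, 9 and 14 reads for MICs against 0, 6 and 3 for non-MICs, so it was at 0 in both libraries of pair 1. *Cd3e* and *Cd3d* were not among the genes of the table. Endothelial markers (7 of 8 in the table) summed to 87.2 to 208 in MICs and 65.6 to 214 in non-MICs, with *Egfl7* the most abundant. *Pecam1*, which encodes CD31, had 18, 5 and 6 reads for MICs against 5, 7 and 11 for non-MICs. The part of other cells in the *Cd74* and class II reads was not tested.

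No antigen presentation gene was called between MICs and non-MICs. The test called 0 of the 10, and 0 of all 22310 genes (0%), with 322 genes and 0 members at an unadjusted p under 0.05, and edgeR on recovered reads also called 0, with 295 at an unadjusted p under 0.05. These fits without the block thus missed even the gate gene *Thy1*, at a difference of 5.32, so their 0 does not show that the populations are alike. With the replicate block limma called 29 genes (0.13%) and edgeR 315 (1.41%), again none of the 10. One gene, *B2m*, was higher in MICs in all 3 pairs, against 12.5% of all genes, and 2 of 10, *H2-K1* and *Tap2*, were lower in all 3, against 18.8%. No member had every MIC value above or every MIC value below the non-MIC values, where 2.69% and 3.55% of all genes did. The median difference over the 10 was -0.05, beside -0.04 over all genes. The blocked intervals show what a difference could still be: for *H2-K1* a MIC level of 0.699 to 1.17 times the non-MIC level, for *H2-D1* 0.766 to 1.32 times, for *B2m* 0.977 to 1.65 times and for *Psmb8* 0.875 to 1.55 times. Without the block the same bounds were 0.395 to 2.07, 0.413 to 2.46, 0.753 to 2.14 and 0.352 to 3.85 times.

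**Figure D3:**
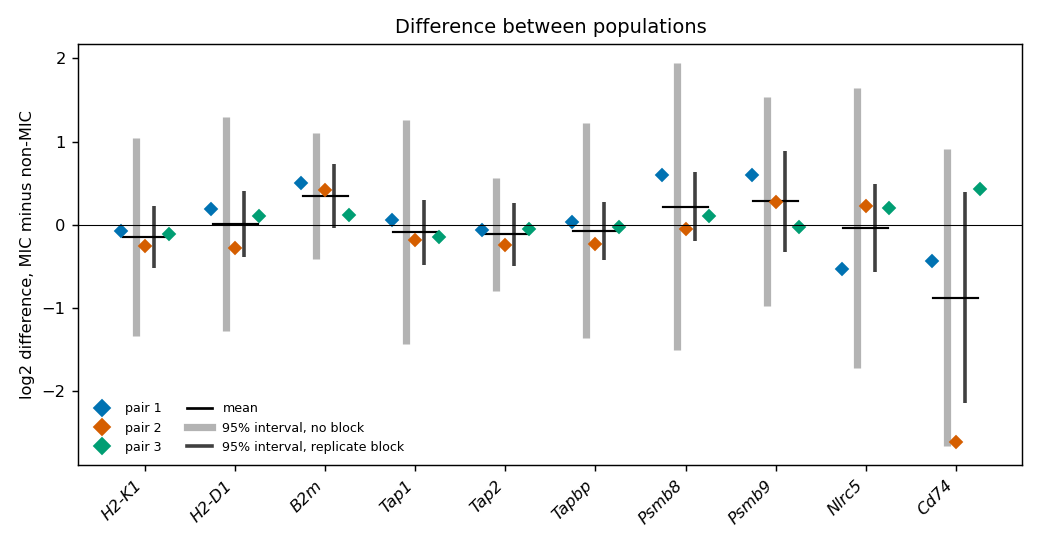
MIC minus non-MIC difference in log2(scaled count + 1) for the 10 genes, with a diamond for each same-numbered pair, a black bar for the mean, and vertical 95% intervals from limma without (grey) and with (dark) the replicate block. Every interval includes 0, and only *B2m* has all 3 diamonds above it, at 0.50, 0.42 and 0.12.

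Most of the variation in these genes lay between the replicate numbers instead, as it did in most genes of the table. The range of pair means exceeded the absolute MIC minus non-MIC difference in 9 of the 10 (90%). This was near the 86.25% of all genes and the 85.26% of those with a mean scaled count of 100 or more. A test between the 3 numbers, chosen after the values were seen, called 8 of the 10 genes by limma and 9 by edgeR, where 28.4% and 31.6% of all genes passed. Among genes with a mean scaled count of 100 or more the shares were 36.0% and 40.8%. A number is not an experimental group, and whether the 2 libraries that share it come from 1 source is not given in the sources used here. The highest pair mean was 4.76 times the lowest for *Psmb8* (limma adjusted p = 2.8e-05), 4.31 times for *Nlrc5* (0.000408), 3.44 times for *Tapbp* (7.3e-05), 3.25 times for *Tap1* (0.000177), 3.19 times for *H2-D1* (0.000228) and 2.72 times for *H2-K1* (0.000247), on the log2(scaled count + 1) scale. The smaller ranges were 2.54-fold for *Psmb9* (0.0268) and 1.84-fold for *B2m* (0.0172), and *Tap2* at 1.58-fold did not pass with limma (0.0806) but did with edgeR (0.0238). *Cd74* did not pass (0.646). The median range over the 10 was 1.56 on the log2 scale, beside 0.91 over all genes and 0.59 over those of at least 100, while their median absolute MIC minus non-MIC difference of 0.13 was beside 0.29 and 0.23.

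The class I genes did not all follow 1 order of pairs. Pair 2 was the lowest in 7 of the 10, namely both heavy chains, *B2m*, *Tap2*, *Tapbp*, *Psmb8* and *Psmb9*. It was the lowest in 6903 of all 22310 genes, and in 3388 of the 11173 with a mean scaled count of 100 or more. *Tap1* and *Nlrc5* were instead highest in pair 2 and lowest in pair 3. *Tap1* and *Psmb9* share their promoter region, yet from pair 1 to pair 2 *Tap1* went from 798 to 918 in MICs and 766 to 1039 in non-MICs, while *Psmb9* went from 220 to 76.7 and 145 to 63.4. *Psmb8* lies between *Tap1* and *Tap2* on the chromosome and had the widest range of the 10, beside the narrowest class I range in *Tap2*. Their annotated genes overlap head to head in the case of *Psmb9* and *Tap1*, and the strand setting of the counting is not given in the sources used here, so reads from the overlap cannot be told apart.

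**Figure D4:**
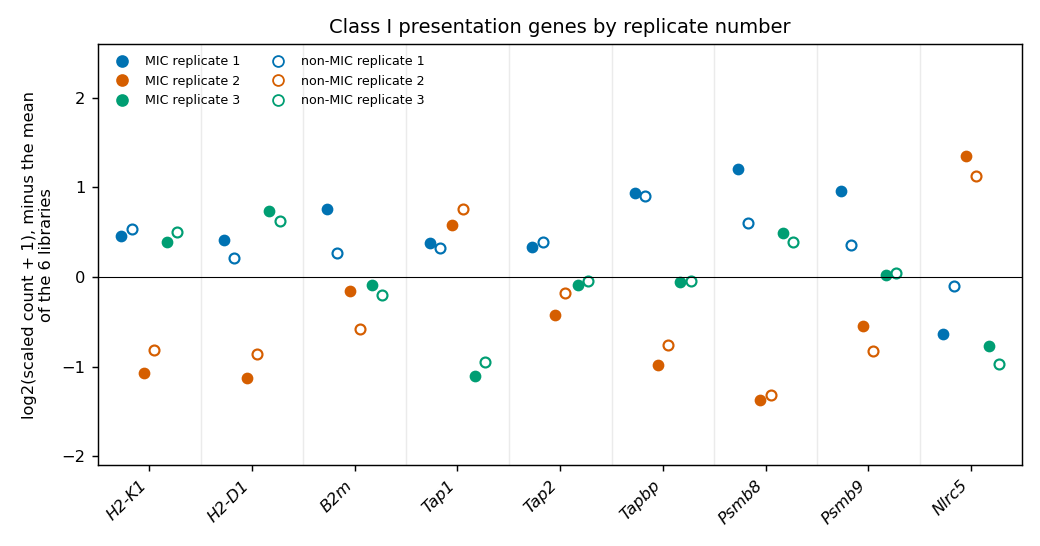
Log2(scaled count + 1) of the 9 class I genes minus each gene's mean over the 6 libraries, with filled points for MICs, open points for non-MICs and a color for each replicate number. Pair 2 lies below the mean for 7 genes and above it for *Tap1* and *Nlrc5*, where pair 3 is the lowest.

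Markers of other cell types, and of the epithelium, also differed between the numbers. The summed mammary epithelial markers (8 of 8 in the table) were 656660, 231220 and 497060 for MICs against 775040, 297680 and 468090 for non-MICs, so pair 2 was lowest, and all 8 passed the limma test between numbers. *Krt18*, a keratin of luminal cells, was the most abundant of them. The immune marker sum was highest in pair 2, as given above, with 11 of 18 passing. Of the 8 fibroblast markers 7 passed between numbers, but their sum did not have 1 order of pairs, at 2167, 673 and 2009 for MICs against 1157, 742 and 588 for non-MICs. Between the populations 4 of the 8 were higher in MICs in all 3 pairs (50%, against 12.5% of all genes), and blocked edgeR called 2 of them, *Col1a2* (adjusted p = 7.89e-12) and *Dcn* (adjusted p = 0.0152), where blocked limma called 0. *Col1a2*, a collagen chain and the most abundant of the list, had 1450, 142 and 650 for MICs against 367, 95.1 and 102 for non-MICs. *Dcn*, a matrix proteoglycan named after its values were seen, had 59.3, 5.56 and 54.8 for MICs against 26.5, 4.23 and 4.91 for non-MICs. The part of these cells in the levels of the antigen presentation genes, between numbers or between populations, was not tested.

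Among the 17 other class I heavy chain genes listed, all in the table, 0 were called between MICs and non-MICs and 10 (58.8%) differed between numbers by limma, against 28.4% of all genes. The genes with the smallest blocked p-values were *Mr1*, which presents vitamin metabolites to MAIT cells, *H2-Q4*, *H2-M3*, which presents formylated peptides, and *H2-T10*. *Mr1* had 384, 160 and 331 for MICs against 249, 69.7 and 365 for non-MICs (difference 0.56, limma adjusted p 0.455 with the block). *H2-M3* had 231, 138 and 96.0 for MICs against 116, 118 and 86.3 for non-MICs, higher in MICs in all 3 pairs. *H2-Q4* had 1511, 370 and 2148 for MICs against 1824, 502 and 2340 for non-MICs, lower in MICs in all 3 pairs and lowest in pair 2 like *H2-K1* and *H2-D1*.

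Pair 3 had its own set of nonclassical heavy chains, picked out here after their values were seen. *H2-T22*, a ligand of some gamma delta T cells, had 1925, 970 and 100 for MICs against 1523, 1095 and 110 for non-MICs. *H2-T23* (Qa-1), which shows leader peptides to NKG2 receptors, had 1385, 721 and 150 for MICs against 1280, 903 and 186 for non-MICs. Both were 16.2-fold and 7.93-fold lower in pair 3 than in pair 1, where their means were highest. *H2-T10*, the near copy of *H2-T22*, went the other way, at 89.5, 75.6 and 418 for MICs against 60.3, 42.3 and 439 for non-MICs. *H2-Q10* was nearly confined to pair 3, with 1, 0 and 154 reads for MICs against 1, 1 and 175 for non-MICs, and the class II gene *H2-DMb2* had 0, 0 and 46 and 0, 1 and 38 reads. *H2-Q2* had 52.8, 16.7 and 267 for MICs against 83.6, 25.4 and 287 for non-MICs.

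These genes have close copies. Of the 75-base windows of their GENCODE transcripts, 18.5% of *H2-T22*, 16.0% of *H2-T10*, 12.5% of *H2-Q10*, 5.40% of *H2-D1* and 3.10% of *H2-K1* also occur in another gene, and 0% in *B2m*, *Tap1*, *Tap2*, *Nlrc5*, *Psmb8*, *Psmb9* and *Cd74*. The class I region is among the most variable of the genome, and FVB/N mice carry another H-2 haplotype than the C57BL/6 reference genome. The effect of either on which gene a read was given to was not tested.

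**Figure D5:**
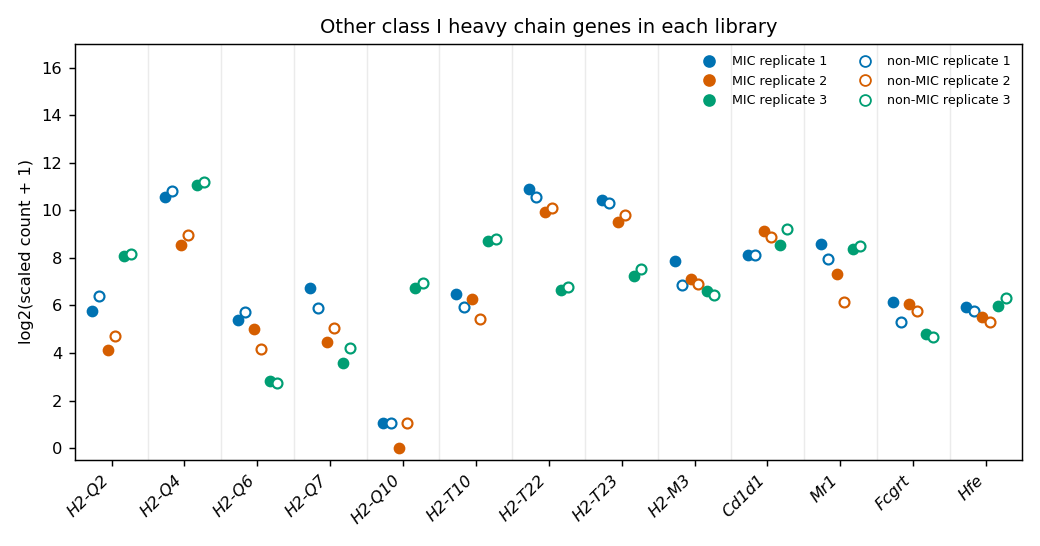
Log2(scaled count + 1) of 13 other class I heavy chain genes in each library, with filled points for MICs, open points for non-MICs and a color for each replicate number. *H2-T22* and *H2-T23* are lowest in pair 3 (100 and 110, 150 and 186), where *H2-T10*, *H2-Q2* and *H2-Q10* are highest.

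Of 20 listed genes that supply or load peptides, all were in the table, 0 were called, and 7 (35%) differed between numbers, near the 28.4% of all genes and the 36.0% of those with a mean of 100 or more. *Sec61b*, a subunit of the endoplasmic reticulum translocon, had the smallest blocked p (difference 0.51, limma adjusted p 0.418 with the block), with 0.69, 0.80 and 0.05 in the pairs. *Psme2*, a subunit of the proteasome activator PA28, differed by 0.34, with a pair 3 value of -0.06. *Erap1*, the aminopeptidase that trims class I peptides, exceeded the non-MIC value in each pair, by 0.27, 0.45 and 0.13, and lowest in pair 2, at 1036 and 758. *Npepps*, a cytosolic aminopeptidase, was lower in all 3, by -0.56, -0.11 and -0.17. The constitutive catalytic subunits *Psmb5*, *Psmb6* and *Psmb7* differed by 0.25, 0.30 and 0.23, and 0 of the 3 were called.

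Regulators of the class I and class II promoters were mostly the lower ones in MICs, though none passed the test. Of 23 genes, all in the table, 15 (65.2%) were lower in MICs in all 3 pairs and 0 were higher in all 3, where 18.8% and 12.5% of all genes were, and 28.5% and 13.2% of those with a mean scaled count of 100 or more. The median difference was -0.25, beside -0.04 over all genes and -0.08 over those of at least 100. *Rela*, the p65 subunit of NF-kB, had 2492, 3062 and 3790 for MICs against 4434, 4098 and 4306 for non-MICs, so that every MIC value was below every non-MIC value (difference -0.48, SE 0.21, limma adjusted p = 1.00, 0.418 with the block). *Nfya*, a subunit of the factor that binds the Y box, also had no overlap, at 1787, 1776 and 1712 against 2485, 1956 and 1940, and is named after its values were seen. *Stat3* differed by -0.42, *Nfkb2*, which encodes the p52 subunit of NF-kB, by -0.40, and *Rfx5*, part of the complex that binds the X box, by -0.47, the last with 0.08 in pair 2. These 3 had unadjusted blocked p-values of 0.0235 to 0.0381 in limma, and adjusted values of 0.421 to 0.427.

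Several regulators also followed the pairs, with 13 of 23 (56.5%) passing between numbers, where 28.4% of all genes and 36.0% of those with a mean of 100 or more did. The interferon-responsive *Irf1* and *Irf7* are named after their values were seen. *Irf1* had 2153, 618 and 5241 for MICs against 2018, 727 and 7531 for non-MICs, lowest in pair 2 as the heavy chains were, with a 9.36-fold range of pair means. *Irf7* had 810, 43.4 and 72.4 for MICs against 938, 77.1 and 85.6 for non-MICs, a 14.8-fold range, with pair 1 far above the others. Against the same shares, 0 of 9 interferon receptors and signaling kinases passed between numbers by limma, and 1 by edgeR, and 0 were called between populations. Of them *Tyk2* differed by -0.52, *Ifnlr1* by -0.50, *Ifngr1* by 0.30 and *Ifngr2* by 0.20 between MICs and non-MICs, each with 1 sign in all 3 pairs.

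The ligands and partners of *Cd74* as a receptor (7 of 8 listed genes in the table, 0 called) were mostly far more abundant in reads than *Cd74*. *Mif*, its cytokine ligand, had 8058, 7241 and 2522 for MICs against 7758, 8240 and 2636 for non-MICs, lower in pair 3 and alike in both populations (difference -0.07). *Cxcr4* and *Ackr3*, receptors that also bind MIF, differed by 0.94 and -0.16, the first with 0.96, 2.08 and -0.22 in the pairs. *Sppl2a*, the protease that clears the last fragment of the invariant chain, differed by 0.25, with 1 sign in all 3 pairs.

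Genes whose profile over the 6 libraries was nearest to the mean centred profile of the 9 class I members were sought among 11164 others with a mean scaled count of at least 100. *Khdrbs3* was nearest, with a root mean square difference of 0.061 on the log2 scale, followed by *Cnn3*, *Psme1*, *Lrrfip1*, *Stx6*, *Exosc3*, *Rras* and *Insig1* at up to 0.098. *Psme1*, the partner of *Psme2* in PA28, is the one among them with a role in class I peptide supply. Among the members, *Tap2* lay at 0.118 and *B2m* at 0.179 from this mean, with *Psmb9* at 0.261, *Tapbp* at 0.382 and *H2-K1* at 0.441. *H2-D1* at 0.560, *Psmb8* at 0.682, *Tap1* at 0.838 and *Nlrc5* at 1.18 lay farther off than most of the other genes. The mean includes the members, and the measure counts the size of the swings as well as their order. *Psmb8* had the same highest and lowest pair as the mean, with wider swings.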

How the data were processed

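RNA from 3 MIC and 3 non-MIC samples was made into stranded mRNA libraries (TruSeq) and sequenced with paired reads. The authors aligned the reads, counted them per gene and scaled each library to the same total, so that the deposited signal is a scaled count. The study's methods name Bowtie2 and samtools, while the submitters' processing notes name STAR, HTSeq, GRCm38 and mm10, and versions are not given in the sources used here. Values were divided by a step of 0.676 to 1.11, the worth of 1 read in a library, and 99.97% to 99.99% of them came out whole within 0.01 read. Gene symbols came from GENCODE vM21 (22161 of 22310 identifiers).

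Log2(scaled count + 1) was tested in R 4.3.3 with limma 3.58.1 (trend, no block, all 6 libraries, Benjamini-Hochberg adjustment over 22310 genes, threshold 0.05). edgeR 4.0.16 and DESeq2 1.42.0 were run on recovered reads, and the procedures were tested on simulated data. Alternatives were another pseudocount (0.1 or 10), leaving out genes under the median level, quantile normalization, TMM rescaling, limma without a trend, the replicate block and leaving out replicates. Ratios were compared by an exact permutation test. Pairing comes from the replicate numbers shared by the populations and from the values: departures from group means correlated at 0.573, 0.668 and 0.746 within numbers and at -0.194 to -0.536 across them. Departures sum to 0 within a population, so positive values within numbers force negative ones across them on balance. The negative values are therefore no separate evidence of pairing. The members and lists were chosen with earlier results of these data known. Named were all members, the gate genes, up to 4 genes per list with the smallest blocked limma p among those with a mean of 10 or more reads, defining and most abundant markers, and the 8 genes of nearest profile. Depth sets counting error only, since reads were not collapsed by molecular identifiers. Some genes that the lists cover are not reported here.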

Additional observations from a re-analysis of the deposited data

How the results depend on the processing

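None of the 10 genes was called under any alternative run; the smallest adjusted p was 0.351, for *B2m* with DESeq2 and the replicate block. Over the whole table the count of called genes was 0 in limma and edgeR without a block (295 at an unadjusted p under 0.05 in edgeR), 1 in DESeq2 (266 unadjusted), 29 in limma with the replicate block, 315 in edgeR with the replicate block and 133 in DESeq2 with the replicate block, and ran from 0 to 59 when 1 replicate was left out; without replicate 1, 2 or 3 the blocked count was 11, 59 and 0. The block changed no other call. *B2m* and *Cd74* kept their sign under every alternative run, of which the filter on low values left out *Cd74*. The sign of the others turned in some. The *H2-D1* difference was -0.0077 after quantile normalization. *Tapbp* was at 0.0066 in edgeR and 0.036 in DESeq2 without a block, and *Nlrc5* at 0.0038 in edgeR, 0.038 in DESeq2 and 0.0013 in DESeq2 with the block.

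Leaving out 1 replicate gave differences of -0.59 to 0.35 for *H2-K1*, -0.42 to 0.58 for *H2-D1*, 0.05 to 0.56 for *B2m*, -0.59 to 0.44 for *Tap1*, -0.31 to 0.066 for *Tap2*, -0.56 to 0.40 for *Tapbp*, -0.72 to 0.52 for *Nlrc5*, -0.39 to 0.96 for *Psmb8*, -0.13 to 0.63 for *Psmb9* and -1.53 to -0.01 for *Cd74*. Their median ran from -0.31 (without MIC 1) to 0.38 (without MIC 2), with 0.10 without non-MIC 1 and -0.28 without non-MIC 2. Leaving out MIC 2 or non-MIC 1 turned *H2-K1*, *Tap2* and *Tapbp* to positive, and leaving out MIC 1 or non-MIC 2 turned *H2-D1*, *Psmb8* and *Psmb9* to negative and *Nlrc5* to positive. The other turns came without MIC 3 (*H2-D1*, *Tap1*, *Nlrc5*), non-MIC 1 or 2 (*Tap1*), non-MIC 3 (*H2-K1*), or a whole pair: in the blocked fit *H2-D1* was at -0.083 without pair 1 and -0.040 without pair 3, *Tapbp* at 0.0079 without pair 2 and *Nlrc5* at 0.21 without pair 1. The log2 ratio difference ran from -0.94 to 0.97 for *Psmb8* over *Psmb5* and from -0.34 to 0.41 for *Psmb9* over *Psmb6*, both turning without MIC 2, non-MIC 1 or non-MIC 3, and within pairs the exact sign-flip test, with a replicate block, gave p = 1.0 for each (smallest possible 0.25). The number of members higher in MICs in all pairs, 1 with 3 pairs, was 2 to 3 when 1 pair was left out, an alternative chosen after the data were seen. Leaving out a pair can only keep or raise this number, so its rise is not a result. Leaving out 1 library in the fit without a block kept the other library of its pair. In the blocked fit without pair 1, 2 or 3, *H2-K1* was at -0.18, -0.09 and -0.17, while *H2-D1*, *Tapbp* and *Nlrc5* still turned, as given. The cause of the changes in sign was not tested. With 3 libraries a population and pairs this far apart, an unblocked change under about the intervals given could not be detected, and *Cd74* is limited by its reads.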

Other observations

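Ligands through which a tumor cell meets T and NK cell receptors were measured in the same libraries. Of 20 listed genes 18 were in the table, 0 were called between MICs and non-MICs in limma (3 at an unadjusted p under 0.05 with the replicate block, as were 2501 of all 22310 genes), 4 were higher in MICs in all 3 pairs and 2 lower in all 3, where 12.5% and 18.8% of all genes were, and 12 (66.7%) differed between replicate numbers, where 28.4% of all genes did. *Fas*, the death receptor engaged by Fas ligand, had 542, 451 and 139 for MICs against 246, 188 and 149 for non-MICs, higher in MICs 1 and 2 and not in MIC 3 (difference 0.76, limma adjusted p 0.418 with the block). *Clec2d*, a ligand of an inhibitory NK cell receptor, had 756, 328 and 415 for MICs against 569, 115 and 413 for non-MICs, a difference of 0.64 that was 1.5 in pair 2 and 0.005 in pair 3. *Cd80*, a costimulatory ligand of CD28, had scaled counts of 22.6, 23.4 and 12.8 for MICs against 2.12, 21.1 and 7.01 for non-MICs, so its difference of 1.28 rests on few reads. *Lgals9*, a galectin that binds TIM-3, had 7600, 1410 and 2719 for MICs against 4909, 1367 and 2084 for non-MICs, above the non-MIC value in each pair by 0.63, 0.04 and 0.38, with a pair range of 4.40-fold.

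A few of these ligands had a wider range of pair means than any antigen presentation gene, and are named after their values were seen. *Raet1e*, a ligand of the activating receptor NKG2D, had 196, 526 and 8.79 for MICs against 125, 433 and 13.3 for non-MICs, a 40.4-fold range of pair means with the lowest in pair 3, as for *Tap1*, *Nlrc5*, *H2-T22* and *H2-T23*. *Vtcn1* (B7-H4), an inhibitory ligand, had 164, 14.5 and 162 for MICs against 304, 8.45 and 278 for non-MICs, lowest in pair 2 as the classical heavy chains were.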
